A study of Homo sapiens with 12 samples.

Results

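The integrated stress response and the unfolded protein response were followed through the mRNA levels of 39 named genes in a pair of pancreatic ductal adenocarcinoma cell lines and a cisplatin-resistant derivative of each. Of the 39 genes, 27 are ATF4-type, meaning ATF4 itself, its partners and genes known to respond to it, and 12 are XBP1/ATF6-type, meaning the sensors of the endoplasmic reticulum (ER), their transcription factors and the chaperones and degradation factors they control. They were taken by name and role, with earlier results of these data known, and all 39 were measured among the 18417 genes tested.

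Cells that lack amino acids or accumulate unfolded protein phosphorylate the translation initiation factor eIF2, which lowers protein synthesis in general while the ATF4 mRNA is translated more, and ATF4 then raises genes of amino acid uptake and synthesis, tRNA charging and feedback. In the ER, the sensors EIF2AK3 (PERK), ERN1 (IRE1) and ATF6 respond to unfolded protein: ERN1 splices the XBP1 mRNA into the form that codes for the active factor, ATF6 is released by cleavage, and both raise chaperones and the machinery of ER-associated degradation (ERAD). ATF4 is thus controlled largely by translation, XBP1 by splicing and ATF6 by cleavage, and the level of a summarised mRNA, measured here, does not separate these steps or the spliced from the unspliced XBP1 mRNA.

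AsPC1 and BxPC3 are established human lines. Both were grown in RPMI medium with serum and without cisplatin, AsPC1-R was kept in the same medium with 1.67 µM cisplatin and BxPC3-R with 0.60 µM, and the derivatives went through a final passage without the drug before harvest. Total RNA from subconfluent cultures was hybridized to Affymetrix arrays, with 3 arrays in each of the 4 groups (12 in all), and levels are log2 values made comparable between arrays by quantile normalization, so the number of arrays limits the precision. Each derivative is a single derived line, and since no label ties the 3 arrays of a group to independent cultures, the p-values reflect the scatter among arrays, which may be technical.

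The level of SMAD4 matched the line named in each label, but it does not tell a derivative from its parent. The epithelial markers EPCAM and KRT19 had group means of 12.43 to 13.29 and 10.70 to 11.48. The leukocyte marker PTPRC had 3.19 to 3.27 and the fibroblast marker DCN 3.83 to 4.10. Other markers went the other way. AsPC1 cells held LUM (mean 11.55) and LYZ (12.21) at high levels and KRT7 at a mean of only 7.02. The leukocyte marker CD68 averaged 10.11 in AsPC1, 10.83 in AsPC1-R, 9.25 in BxPC3 and 8.53 in BxPC3-R. In BxPC3 the fibroblast marker ACTA2 averaged 9.48 and the endothelial marker CDH5 9.34. SMAD4, a gene deleted in BxPC3, read 9.51 to 10.01 on the AsPC1 and AsPC1-R arrays and 4.14 to 5.01 on the BxPC3 and BxPC3-R arrays. A single array stood apart: on BxPC3 replicate 2, the 50 genes that exceeded BxPC3-R most in AsPC1 had a median level of 6.77, against 5.81 and 5.68 on the other BxPC3 arrays, 5.38 to 5.48 on the BxPC3-R arrays and 11 to 11.14 on the AsPC1 arrays. Each of the 50 had its top BxPC3 value there, in a check made after the values had been seen. Calls of members in the derivatives and in the difference between the lines, and of the other genes named, that were lost without it are given as such.

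Changes were tested with limma, with p-values adjusted over all 18417 genes, and "rose", "fell" and "differed" are used for an adjusted p under 0.05. An error after ± is the standard error of a log2 change, or the SD over the 3 arrays (n = 3) where it follows a mean level. In AsPC1-R, 6 of the 39 members rose and 4 fell relative to AsPC1, which is 25.6% of the members against 20.3% of all genes tested (11.6% of all genes rose and 8.64% fell). In BxPC3-R, 2 members rose and 9 fell relative to BxPC3, 28.2% against 20.8% of all genes (9.75% rose and 11.0% fell). Without BxPC3 replicate 2, 1 rose and 7 fell. No member changed by 2-fold or more in either derivative, where 429 (AsPC1-R) and 428 (BxPC3-R) of all 18417 genes were called at that size. In neither derivative were 20 members called, 51.3% against 66.7% of all genes. ASNS rose in AsPC1-R and fell in BxPC3-R (2.56% of the members, against 3.43% of all genes). CREB3L2 fell in both (2.56%, against 1.1% of all genes), and no other member was called in both. In bulk RNA of this kind, fewer cells with a transcript and less of it per cell cannot be told apart.

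**Figure D1:**
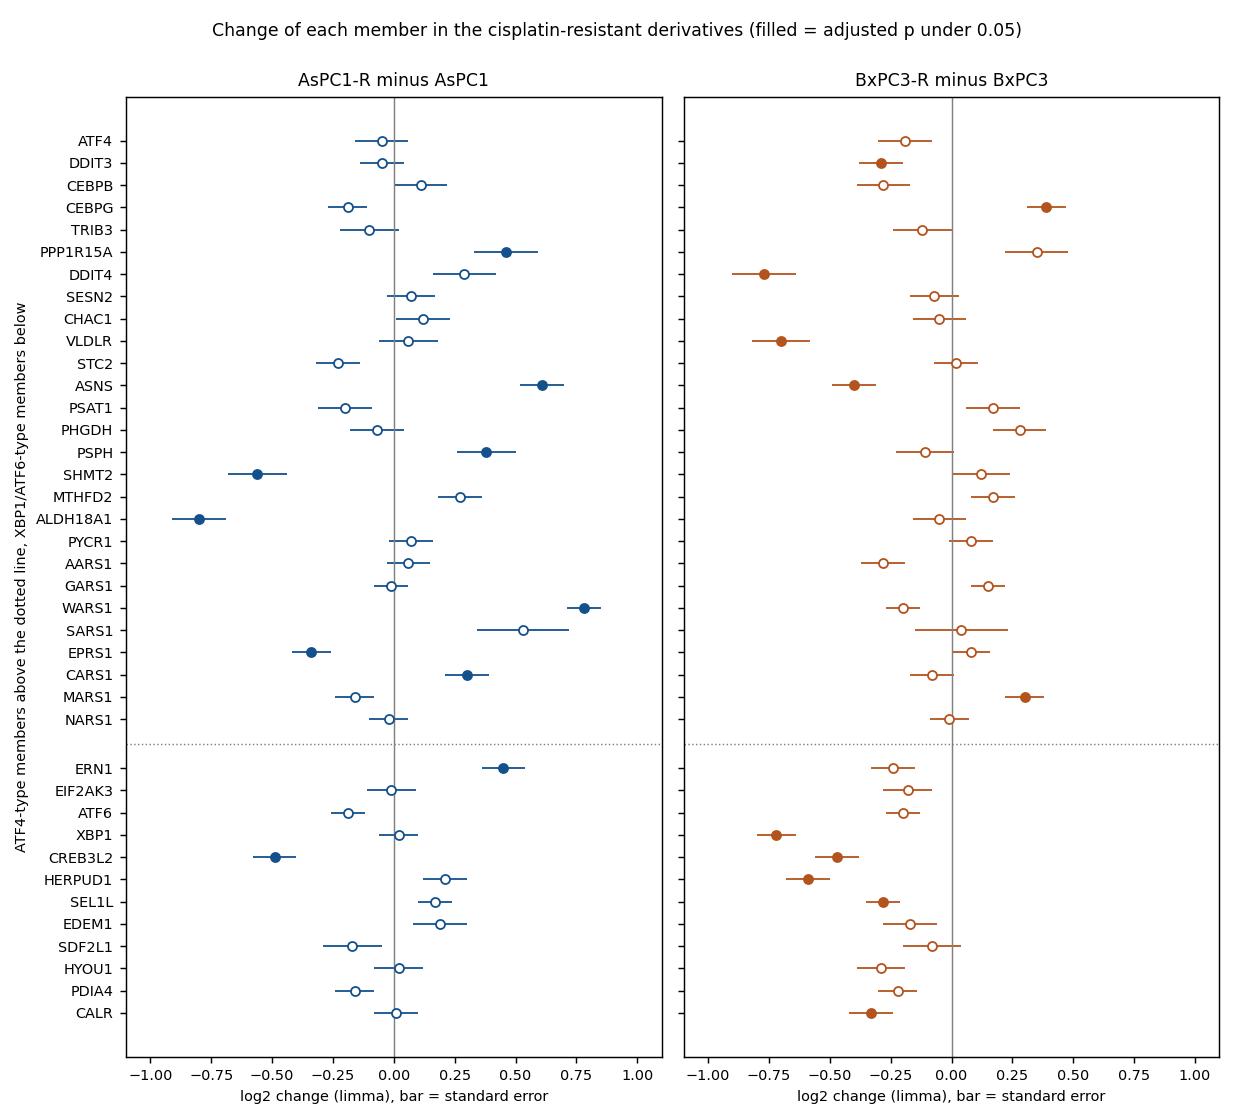
Log2 change (x axis) of each of the 39 members (y axis, ATF4-type above the dotted line and XBP1/ATF6-type below) in AsPC1-R against AsPC1 (left) and BxPC3-R against BxPC3 (right). Points are limma estimates from 3 arrays a group, bars their standard errors, and filled points have an adjusted p under 0.05; all 12 XBP1/ATF6-type points lie below 0 on the right, with 5 of them filled.

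The promoters of the ATF4-type members were searched, on both strands, for the composite site that C/EBP and ATF factors share, TGATGNAA, in the 300 bases from 250 before to 50 after the start of transcription (RefSeq, GRCh38.p14). The sites are shown because members that carry them moved in different directions. Of the 24 ATF4-type members with a promoter in the table, 8 (33.3%) held a match, against 4.46% of the 27305 genes with a promoter there. They were AARS1, ASNS, CARS1, CEBPG, CHAC1, GARS1, MARS1 and NARS1. The same site was found in 2 of the 12 XBP1/ATF6-type members (16.7%), CREB3L2 and HERPUD1. The unfolded protein response element TGACGTG was found in ALDH18A1 and CARS1 (8.33%, against 2.4% of all genes). Matches that begin before the start of transcription, in members whose level changed, are printed 5′ to 3′ on the strand of the gene with the match in capitals. They lie at chr7:97872439-97872506 (minus strand) for ASNS, chr19:33374041-33374108 (plus strand) for CEBPG, chr11:3057418-3057455 (minus strand) for CARS1, chr12:57488034-57488071 (plus strand) for MARS1 and chr10:95656734-95656800 (minus strand) for ALDH18A1, where the capitals mark the unfolded protein response element, read on the opposite strand; for the other genes they mark the composite site, which reads as TTGCATCA where it lies on the opposite strand.
ASNS: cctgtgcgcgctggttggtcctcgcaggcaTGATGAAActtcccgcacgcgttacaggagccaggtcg
CEBPG: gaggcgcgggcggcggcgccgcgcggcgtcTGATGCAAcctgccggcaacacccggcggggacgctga
CARS1: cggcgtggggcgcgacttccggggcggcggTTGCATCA
MARS1: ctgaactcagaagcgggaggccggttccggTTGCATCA
ALDH18A1: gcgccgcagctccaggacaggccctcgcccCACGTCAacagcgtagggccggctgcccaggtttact
A match is a description of the letters, not evidence of binding. The list was made of genes known to respond to ATF4, so a share above that of all genes is no independent result. CEBPG, CARS1 and MARS1 held the same 8 letters on one strand or the other, while CARS1 was the member of the 3 that rose in AsPC1-R, and CEBPG and MARS1 rose in BxPC3-R. The composite matches of CARS1 and MARS1 start 2 and 4 bases before the start of transcription, that of CEBPG 42 bases and that of ASNS 68 bases before it. ASNS, with a match of different letters at the variable base, changed in opposite directions in the derivatives.

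Among the regulators of the ATF4 circuit, the mRNAs of ATF4 and CEBPB did not pass the test in either derivative. ATF4, the factor translated when eIF2 is phosphorylated, read 10.91, 10.53 and 10.99 in AsPC1, 10.72, 10.77 and 10.79 in AsPC1-R, 10.96, 11.08 and 11.03 in BxPC3, and 10.82, 10.79 and 10.90 in BxPC3-R. The BxPC3-R arrays all lay below the BxPC3 arrays, at a log2 change of -0.19 ± 0.11 (adjusted p = 0.266), and the AsPC1 and AsPC1-R arrays overlapped (-0.05 ± 0.11, adjusted p = 0.766). A second ATF4 probe set, dimmer on average, gave changes of -0.22 and -0.07. CEBPB, a C/EBP partner, read 7.56, 7.54 and 7.18 in AsPC1, 7.46, 7.61 and 7.55 in AsPC1-R, 7.64, 7.54 and 7.49 in BxPC3, and 7.40, 7.25 and 7.17 in BxPC3-R. Its arrays overlapped in the AsPC1 pair and were all lower in BxPC3-R than in BxPC3, by -0.28 ± 0.11 with an adjusted p of 0.0812.

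CEBPG, the C/EBP family member that pairs with ATF4, rose in BxPC3-R. It read 8.54, 8.65 and 8.55 in BxPC3 and 8.98, 8.99 and 8.95 in BxPC3-R, a log2 change of 0.39 ± 0.08 (adjusted p = 0.00213) with no overlap of arrays. In the other line it went from 9.26, 9.06 and 9.06 in AsPC1 to 8.91, 8.95 and 8.93 in AsPC1-R, a change of -0.19 ± 0.08 that did not pass the test (adjusted p = 0.0998). The parental difference in CEBPG, 0.55 ± 0.08 higher in AsPC1, was thus -0.04 ± 0.08 between the derivatives; these comparisons share arrays.

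DDIT3, the factor CHOP that acts in prolonged ER stress, was lower in BxPC3-R. Its values were 7.33, 7.18 and 7.22 in BxPC3 and 6.93, 6.92 and 7 in BxPC3-R, a fall of -0.29 ± 0.09 (adjusted p = 0.0298) that did not hold without BxPC3 replicate 1 or 3 or BxPC3-R replicate 1 or 2 (adjusted p = 0.0666 to 0.105). In AsPC1 it read 7.58, 7.71 and 7.85 and in AsPC1-R 7.59, 7.65 and 7.77, and these arrays overlapped. PPP1R15A, which directs the phosphatase that reverses eIF2 phosphorylation, rose in AsPC1-R, from 8.01, 7.69 and 8.27 to 8.36, 8.64 and 8.36, by 0.46 ± 0.13 (adjusted p = 0.0191). All AsPC1-R arrays lay above the AsPC1 arrays, but leaving out replicate 2 of AsPC1 (adjusted p = 0.0705) or of AsPC1-R (0.0909) ended the call. In BxPC3 the same gene read 8.64, 8.80 and 8.74 and in BxPC3-R 9.04, 9.06 and 9.13, a change of 0.35 ± 0.13 with no overlap (adjusted p = 0.0711); it passed without AsPC1 replicate 2 (0.0204) or 3 (0.0284). TRIB3, a pseudokinase that restrains ATF4, had group means between 6.51 and 6.71 and passed in neither derivative.

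Of the 5 ATF4-type effectors of growth control, secretion and redox balance, DDIT4 and VLDLR fell in BxPC3-R and none passed in AsPC1-R by limma, where 2 had an unadjusted p under 0.05. DDIT4, the REDD1 protein that restrains mTORC1, read 7.94, 7.66 and 7.72 in BxPC3 and 6.96, 7.02 and 7.04 in BxPC3-R, a fall of -0.77 ± 0.13 (adjusted p = 0.000515). In AsPC1 it was 6.99, 6.99 and 7.51 and in AsPC1-R 7.40, 7.49 and 7.48, and the array at 7.51 kept these groups overlapping (0.29 ± 0.13, adjusted p = 0.126; 0.0032 without that array, AsPC1 replicate 3). VLDLR, a lipoprotein receptor, read 8.16, 8.61 and 8.50 in BxPC3 and 7.78, 7.66 and 7.73 in BxPC3-R, a fall of -0.70 ± 0.12 (adjusted p = 0.000857). In AsPC1 (5.31, 5.62 and 5.35) and AsPC1-R (5.57, 5.33 and 5.55) VLDLR lay below the median of all values on the arrays, 6.554. SESN2, a stress-induced sensor of leucine, and CHAC1, which breaks down glutathione, passed in neither derivative, with group means of 6.14 to 6.24 and 6.88 to 7.03. The SESN2 means also lay below that median. STC2, a secreted glycoprotein, read only 4.67 to 5.12 over all 12 arrays.

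Markers of cell types moved in AsPC1-R too, where 11.6% of all genes rose and 8.64% fell. Of 6 leukocyte genes 2 rose, and their mean level went from 7.11 to 7.27 on the AsPC1 arrays to 7.31 to 7.41 on the AsPC1-R arrays. Of 4 endothelial genes 1 rose, and of 7 fibroblast genes 1 rose and 1 fell. LUM went from a mean of 11.55 to 10.51. Of 7 epithelial genes 1 rose and 2 fell, and of 4 acinar and endocrine genes 1 fell. The part of these markers in the changes of that derivative was not tested.

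The 8 enzymes of amino acid and one-carbon metabolism moved in both directions in AsPC1-R, where ASNS and PSPH rose, SHMT2 and ALDH18A1 fell and the remaining 4 did not pass. ASNS, which makes asparagine and carries the composite site printed above, read 9.30, 9.45 and 9.54 in AsPC1 and 10.07, 10.00 and 10.02 in AsPC1-R. It rose by 0.61 ± 0.09, or 1.52-fold (adjusted p = 0.000387). In BxPC3 it read 8.65, 8.74 and 8.53 and in BxPC3-R 8.13, 8.19 and 8.39, a fall of -0.40 ± 0.09 (adjusted p = 0.00707). The groups overlapped in neither line, and the difference between the changes was 1.01 ± 0.13 (adjusted p = 7.47e-05).

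ALDH18A1, the first enzyme of proline synthesis from glutamate, had the largest fall of any member in AsPC1-R. It read 11.01, 10.97 and 11.22 in AsPC1 and 10.30, 10.20 and 10.28 in AsPC1-R (-0.80 ± 0.11, 1.75-fold, adjusted p = 8.67e-05), while the BxPC3 arrays (9.66, 10.07 and 9.88) and BxPC3-R arrays (9.82, 9.74 and 9.89) overlapped. SHMT2, the mitochondrial serine hydroxymethyltransferase, fell from 9.74, 9.56 and 10.07 in AsPC1 to 9.16, 9.30 and 9.24 in AsPC1-R (-0.56 ± 0.12, adjusted p = 0.00371). In BxPC3 it read 9.78, 10.05 and 9.91 and in BxPC3-R 10.04, 9.97 and 10.09, and these arrays overlapped. MTHFD2, the next enzyme of the mitochondrial folate pathway, did not follow SHMT2. Its change in AsPC1-R was 0.27 ± 0.09 (adjusted p = 0.06) on the probe set used and 0.28 on its other probe set; it passed without AsPC1 replicate 3 (0.0169) or BxPC3 replicate 1 (0.0456).

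PSPH, the last enzyme of serine synthesis, is uncertain because its probe sets disagreed. The brighter probe set, used here, read 8.38, 8.68 and 8.94 in AsPC1, 9.13, 9.09 and 8.94 in AsPC1-R, 8.30, 8.28 and 8.24 in BxPC3, and 8.09, 8.14 and 8.25 in BxPC3-R. It rose in AsPC1-R by 0.38 ± 0.12 (adjusted p = 0.0324) with overlapping arrays, and the call was lost without AsPC1 replicate 1 or 2 or AsPC1-R replicate 1 or 2 (adjusted p = 0.0626 to 0.128). The other probe set gave 0.50 in AsPC1-R, -0.62 against -0.11 in BxPC3-R, and -2.33 against 0.39 for AsPC1 minus BxPC3. PHGDH and PSAT1, the earlier enzymes of the same route, passed in neither derivative: PHGDH changed by -0.07 ± 0.11 and 0.28 ± 0.11 in AsPC1-R and BxPC3-R, and PSAT1 by -0.20 ± 0.11 and 0.17 ± 0.11. PYCR1, the last enzyme of proline synthesis, changed by 0.07 ± 0.09 and 0.08 ± 0.09 and did not pass either.

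The 8 cytosolic tRNA synthetases, which charge tRNAs with amino acids, moved in both directions in AsPC1-R. There WARS1 and CARS1 rose, EPRS1 fell and 5 did not pass (37.5% called, against 20.3% of all genes). In BxPC3-R, MARS1 rose and 7 did not pass (12.5% called, against 20.8% of all genes). WARS1, the tryptophan enzyme, read 9.59, 9.51 and 9.55 in AsPC1 and 10.38, 10.26 and 10.35 in AsPC1-R, the largest rise of any member there (0.78 ± 0.07, 1.72-fold, adjusted p = 3.48e-06). In BxPC3 it read 10.78, 10.87 and 10.78 and in BxPC3-R 10.65, 10.57 and 10.62, a change of -0.20 ± 0.07 (adjusted p = 0.0786) with no overlap of arrays. WARS1 is also known as an interferon-induced gene. The mean level of 10 measured interferon-response genes ran alongside, from 7.05 to 7.15 on the AsPC1 arrays to 8.26 to 8.54 on the AsPC1-R arrays, and from 8.96 to 9.15 in BxPC3 to 8.07 to 8.18 in BxPC3-R. Of these 10, 9 rose in AsPC1-R and 7 fell in BxPC3-R; their part in the level of WARS1 was not tested.

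CARS1, the cysteine enzyme, rose in AsPC1-R from 9.43, 9.35 and 9.58 to 9.64, 9.87 and 9.76 (0.30 ± 0.09, adjusted p = 0.0273). The call did not hold without AsPC1 replicate 1 or 2 or AsPC1-R replicate 2 or 3 (adjusted p = 0.07 to 0.115). In BxPC3 it read 9.08, 9.21 and 9.07 and in BxPC3-R 9.01, 9.03 and 9.07. EPRS1, the glutamate and proline enzyme, fell from 12.34, 12.47 and 12.35 in AsPC1 to 12.10, 11.98 and 12.06 in AsPC1-R (-0.34 ± 0.08, adjusted p = 0.00514), which brought it to the range of BxPC3 (12, 11.92 and 12.01) and BxPC3-R (12.02, 12.04 and 12.10). MARS1, the methionine enzyme, rose in BxPC3-R from 10.40, 10.41 and 10.50 to 10.73, 10.67 and 10.81 (0.30 ± 0.08, adjusted p = 0.0211), while AsPC1 (9.95, 10.06 and 10.21) and AsPC1-R (9.86, 9.92 and 9.97) overlapped. Without BxPC3 replicate 1 or 2 or BxPC3-R replicate 1 or 3, MARS1 gave an adjusted p of 0.0576 to 0.088.

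The other synthetases, AARS1, GARS1, NARS1 and SARS1, passed in neither derivative. AARS1, the alanine enzyme, stood just outside the threshold in BxPC3-R at -0.28 ± 0.09 (adjusted p = 0.0521), and passed without AsPC1 replicate 1 (0.0432) or 3 (0.0245) or BxPC3 replicate 1 (0.041). GARS1 and NARS1, the glycine and asparagine enzymes, changed by -0.01 ± 0.07 and -0.02 ± 0.08 in AsPC1-R and by 0.15 ± 0.07 and -0.01 ± 0.08 in BxPC3-R. SARS1, the serine enzyme, was spread widely over the parental arrays, at 9.77, 9.27 and 10.28 in AsPC1 against 10.19, 10.33 and 10.40 in AsPC1-R (0.53 ± 0.19, adjusted p = 0.0624; 0.002 without AsPC1 replicate 3).

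**Figure D2:**
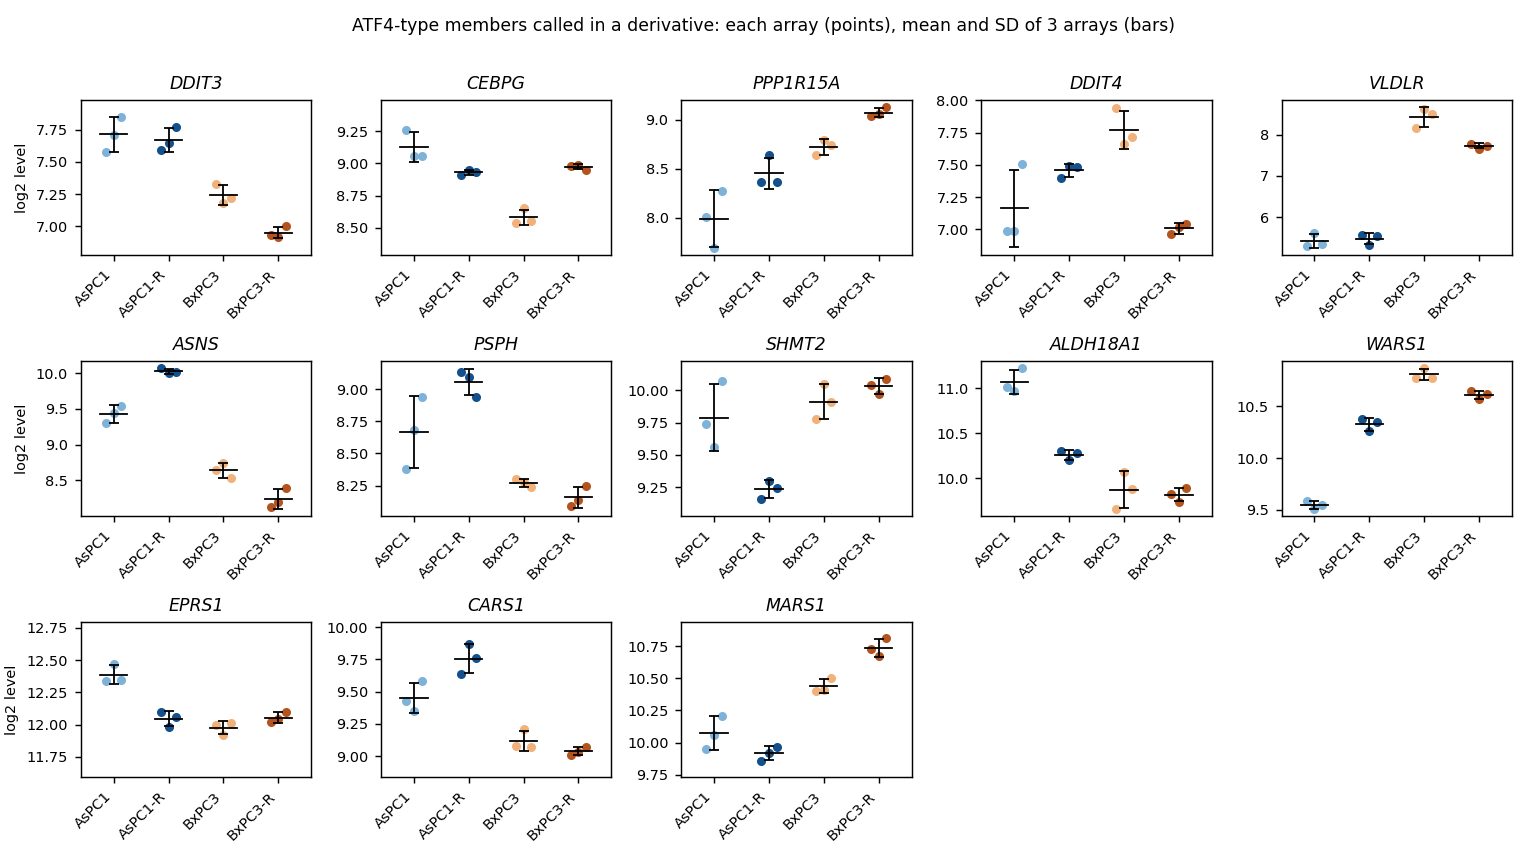
Log2 level (y axis, scaled separately for each gene) of the 13 ATF4-type members called in AsPC1-R or BxPC3-R, on each array of the 4 groups (x axis). Points are arrays and bars the mean and SD of 3 arrays; ASNS is higher in AsPC1-R than in AsPC1 and lower in BxPC3-R than in BxPC3, and DDIT4 falls to 6.96 to 7.04 in BxPC3-R.

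Of the XBP1/ATF6-type members, 5 fell in BxPC3-R and 1 in AsPC1-R. The test of the difference between these changes passed for 4 of the 12 (33.3%, against 25.4% of all genes). In BxPC3-R, 5 of the 12 fell and none rose, 41.7% lower against 11.0% of all genes, and all 12 estimates were negative (median -0.26, against 0.02 over all genes tested). In AsPC1-R, 1 rose (ERN1) and 1 fell (CREB3L2), the median was 0.01 and 7 of 12 estimates were positive (all genes tested, -0.05). The mean level of the 12 genes read 9.70 to 9.77 on the BxPC3 arrays and 9.39 to 9.43 on the BxPC3-R arrays, while the AsPC1 and AsPC1-R groups both averaged 9.35. For 11 of the 12 genes, all but SDF2L1, every BxPC3-R array lay below every BxPC3 array, as it did for 18.8% of all genes, while 20.8% of all genes were called in either direction. Groups of 3 separate more often than they pass the test: 38.2% of all genes and 18 of the 27 ATF4-type members did not overlap in this comparison, higher or lower.

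The count of 5 rested partly on single arrays. Without BxPC3 replicate 2, the array that stood apart, 3 of the 12 fell and the median was -0.23, since CALR (adjusted p = 0.0657) and SEL1L (0.0585) no longer passed; without BxPC3-R replicate 2 the count was also 3. With arrays weighted by their quality it was 10. Markers of other cell types moved in this comparison too, where 9.75% of all genes rose and 11.0% fell. Of 4 endothelial genes PECAM1 and CDH5 fell, and their list mean went from 6.63 to 6.81 on the BxPC3 arrays to 5.75 to 5.83 on the BxPC3-R arrays. Of 6 leukocyte genes 2 fell, with a list mean of 5.75 to 6.34 before and 5.51 to 5.66 after. The value of 6.34 is that of BxPC3 replicate 2, where LYZ read 7.71, against 4.69 and 4.66 on the other BxPC3 arrays. Of 7 fibroblast genes LUM rose (1.53 ± 0.22) and ACTA2 fell (-1.41 ± 0.09), with a list mean of 6.14 to 6.36 and then 6.23 to 6.33. Of 7 epithelial genes 3 rose, KRT8 by 1.12 ± 0.13, and 1 fell, with a list mean of 10.59 to 10.73 and then 10.85 to 10.95. The part of these markers in the result was not tested.

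The promoters of the XBP1/ATF6-type members were searched in the same way for the ER stress element, CCAAT and CCACG with any 9 bases between them, and for the second ER stress element, ATTGG and CCACG with any 1 base between them. They are printed because XBP1, HERPUD1 and CALR, which hold such matches, fell in BxPC3-R. The first was found in CALR and XBP1, 16.7% of the 12 genes against 0.0916% of all genes with a promoter. The second was found in HERPUD1, HYOU1 and SDF2L1 (25.0% against 0.0696%), and neither in any of the 24 ATF4-type promoters. This list too was made of genes known to belong to the response, so its shares of matches are no independent result. The windows lie at chr22:28800573-28800651 (minus strand) for XBP1, chr19:12938359-12938432 (plus strand) for CALR, where the match is on the opposite strand, and chr16:56931936-56932065 (plus strand) for HERPUD1, whose capitals mark a composite C/EBP-ATF site on the opposite strand and, after it, the second ER stress element.
XBP1: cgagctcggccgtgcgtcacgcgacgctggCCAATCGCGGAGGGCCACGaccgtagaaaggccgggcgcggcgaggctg
CALR: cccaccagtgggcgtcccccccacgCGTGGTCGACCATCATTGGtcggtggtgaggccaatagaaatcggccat
HERPUD1: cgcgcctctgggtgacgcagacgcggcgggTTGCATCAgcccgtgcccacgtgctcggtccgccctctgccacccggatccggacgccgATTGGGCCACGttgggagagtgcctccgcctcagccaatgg
XBP1 itself thus carries, 52 bases before its start, the element to which ATF6 is known to bind. HERPUD1 was the printed promoter with matches of both kinds, at 176 and 117 bases before its start. Counting the unfolded protein response element too, 5 of the 12 XBP1/ATF6-type members (41.7%) held at least 1 of the 3 ER motifs, against 2 of 24 ATF4-type members (8.33%) and 2.55% of all genes. HYOU1 had an unfolded protein response element that overlapped its second ER stress element. Of the 5 genes with an ER motif, XBP1, HERPUD1 and CALR fell in BxPC3-R and HYOU1 (adjusted p = 0.0533) and SDF2L1 (0.735) did not pass. CREB3L2 and SEL1L, which held none of the 3, also fell.

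**Figure D3:**
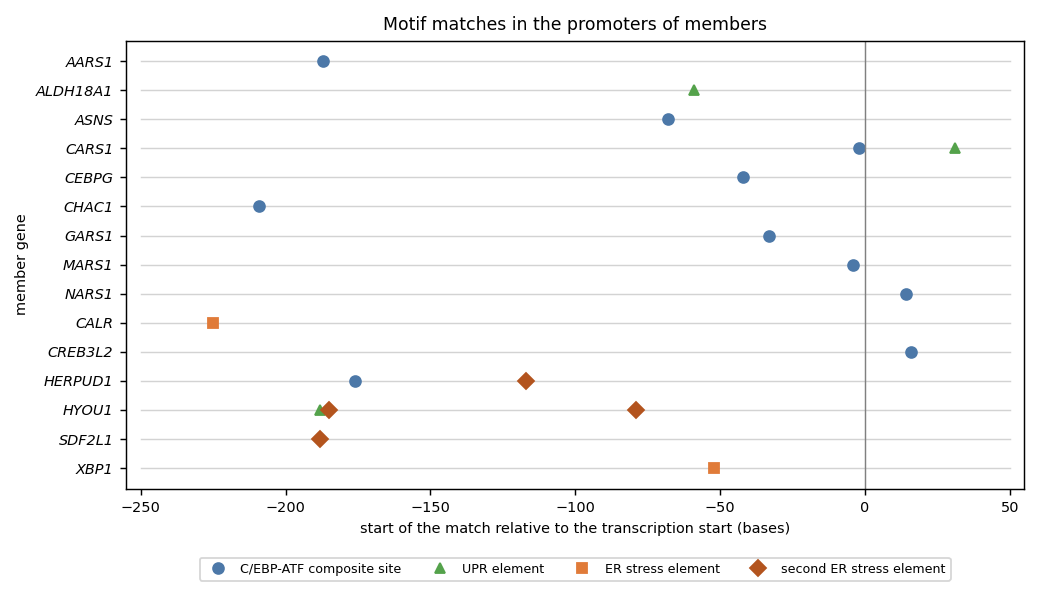
Position of each motif match (x axis, bases relative to the start of transcription at 0) in the promoters of the members that hold one (y axis). Symbols mark the motif; circles, the composite C/EBP-ATF site, lie mainly in the ATF4-type members in the upper rows, and squares and diamonds, the ER stress elements, in XBP1/ATF6-type members.

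Among the sensors and transcription factors, XBP1 fell in BxPC3-R and ERN1 rose in AsPC1-R. XBP1 read 9.51, 9.51 and 9.38 in BxPC3 and 8.77, 8.66 and 8.82 in BxPC3-R, a fall of -0.72 ± 0.08 or 1.64-fold (adjusted p = 3.36e-05). In AsPC1 (9.24, 9.15 and 9.40) and AsPC1-R (9.27, 9.29 and 9.31) the arrays overlapped, with a change of 0.02 ± 0.08. ERN1, the kinase and endonuclease that splices XBP1, rose from 7.57, 7.63 and 7.50 in AsPC1 to 8.02, 7.93 and 8.09 in AsPC1-R (0.45 ± 0.09, adjusted p = 0.0022). In BxPC3 it read 7.53, 7.61 and 7.51 and in BxPC3-R 7.45, 7.31 and 7.17, a change of -0.24 ± 0.09 that did not pass (adjusted p = 0.071; 0.0376 without BxPC3-R replicate 1).

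CREB3L2, an ER-bound transcription factor of the ATF6-related CREB3 family, was the member that fell in both. It read 9.01, 8.99 and 8.73 in AsPC1 and 8.40, 8.37 and 8.47 in AsPC1-R (-0.49 ± 0.09, adjusted p = 0.0019), and 8.82, 8.83 and 8.64 in BxPC3 and 8.39, 8.28 and 8.20 in BxPC3-R (-0.47 ± 0.09, adjusted p = 0.00233). Neither pair of groups overlapped. ATF6 read 10.98, 11.07 and 11.05 in AsPC1, 10.90, 10.80 and 10.82 in AsPC1-R, 11.31, 11.31 and 11.29 in BxPC3 and 11.12, 11.10 and 11.10 in BxPC3-R. Its arrays were separate in both pairs, but the changes of -0.19 ± 0.07 and -0.20 ± 0.07 did not pass (adjusted p = 0.0691 and 0.0666). EIF2AK3, the sensor kinase that phosphorylates eIF2, read 8.14, 8.58 and 8.44 in AsPC1, 8.34, 8.38 and 8.42 in AsPC1-R, 8.64, 8.76 and 8.70 in BxPC3 and 8.52, 8.42 and 8.61 in BxPC3-R, and passed in neither derivative.

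Of the 7 chaperones and ERAD factors, HERPUD1, SEL1L and CALR fell in BxPC3-R (42.9%, where 11.0% of all genes fell). None of the 7 passed in AsPC1-R by limma, where 20.3% of all genes were called, and 2 had an unadjusted p under 0.05. HERPUD1, a membrane component of the degradation complex, read 10.05, 9.97 and 9.89 in BxPC3 and 9.30, 9.36 and 9.48 in BxPC3-R, a fall of -0.59 ± 0.09 (adjusted p = 0.000355). In AsPC1 it read 9.07, 9.20 and 9.16 and in AsPC1-R 9.31, 9.52 and 9.23, all higher than in AsPC1 but short of the threshold (0.21 ± 0.09, adjusted p = 0.137). The BxPC3-R level of HERPUD1 thus lay in the range of AsPC1-R, where BxPC3 had been higher than AsPC1 by 0.82 ± 0.09 (AsPC1 minus BxPC3, -0.82).

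SEL1L, the adaptor of the degradation ligase, read 10.70, 10.79 and 10.76 in BxPC3 and 10.47, 10.43 and 10.51 in BxPC3-R (-0.28 ± 0.07, adjusted p = 0.0161), against 10.25, 10.30 and 10.32 in AsPC1 and 10.53, 10.37 and 10.48 in AsPC1-R. Its arrays did not overlap in either pair, and it lay lower in BxPC3-R and higher in AsPC1-R (0.17 ± 0.07, adjusted p = 0.129). The fall did not hold without BxPC3 replicate 2 or 3 or BxPC3-R replicate 1 or 2 (adjusted p = 0.052 to 0.0713). CALR, the calcium-binding lectin chaperone calreticulin, read 11.62, 11.71 and 11.64 in BxPC3 and 11.31, 11.31 and 11.36 in BxPC3-R (-0.33 ± 0.09, adjusted p = 0.0183), and 11.24, 11.02 and 11.38 in AsPC1 and 11.19, 11.28 and 11.19 in AsPC1-R, where the arrays overlapped. It was lost without BxPC3 replicate 2 or BxPC3-R replicate 1 or 2 (adjusted p = 0.0586 to 0.0657) and with each array centred on its median (0.0598).

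EDEM1, a mannosidase-like ERAD factor, the chaperone HYOU1, the disulphide isomerase PDIA4 and the chaperone partner SDF2L1 passed in neither derivative. In BxPC3-R their changes were -0.17 ± 0.11, -0.29 ± 0.10, -0.22 ± 0.08 and -0.08 ± 0.12. HYOU1 passed there without AsPC1 replicate 2 (adjusted p = 0.0265) or 3 (0.0266) and PDIA4 without AsPC1 replicate 3 (0.0452), arrays that enter through the shared estimate of the spread. In AsPC1-R the changes of EDEM1, HYOU1, PDIA4 and SDF2L1 were 0.19 ± 0.11, 0.02 ± 0.10, -0.16 ± 0.08 and -0.17 ± 0.12, and SDF2L1 passed without AsPC1-R replicate 2 (0.0488).

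**Figure D4:**
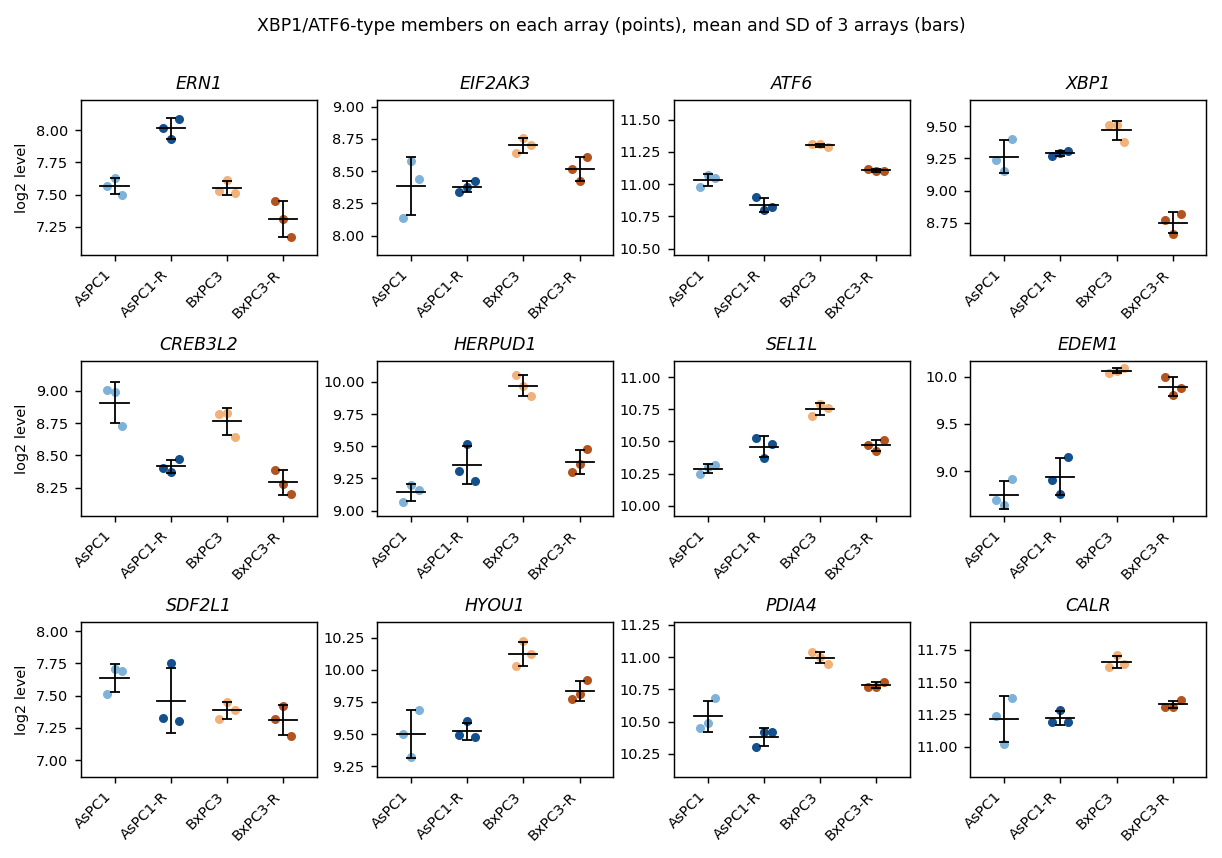
Log2 level (y axis, scaled separately for each gene) of the 12 XBP1/ATF6-type members on each array of the 4 groups (x axis). Points are arrays and bars the mean and SD of 3 arrays; in 11 of 12 panels the 3 BxPC3-R arrays lie below all 3 BxPC3 arrays, as for 18.8% of all genes (11.0% of all genes were called lower), and ERN1 is higher in AsPC1-R.

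The change differed between the lines for 15 of the 39 members (38.5%, against 25.4% of all genes), by a test of the change in AsPC1-R minus that in BxPC3-R. The difference was positive for 10 and negative for 5, where 14.1% and 11.3% of all genes were. Of the XBP1/ATF6-type members 4 were positive and none negative (median 0.32): HERPUD1 (0.80 ± 0.13), XBP1 (0.74 ± 0.12), ERN1 (0.69 ± 0.12) and SEL1L (0.45 ± 0.11). Of the ATF4-type members 6 were positive, from DDIT4 (1.06 ± 0.18) and ASNS (1.01 ± 0.13) through WARS1 and VLDLR to PSPH (0.50 ± 0.17) and CARS1 (0.39 ± 0.13), and 5 were negative (median of the 27, 0.11; of all genes, -0.07). PSPH and CARS1 lost this call when any of several single arrays was left out, with adjusted p of 0.0709 and 0.0867 without BxPC3 replicate 2. The difference of CREB3L2, -0.02 ± 0.13, did not pass, with a 95% interval of -0.31 to 0.27.

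The parental lines already differed in most members. Between AsPC1 and BxPC3, 26 of 39 members differed (66.7%, against 50.6% of all genes), 9 higher and 17 lower in AsPC1, where 27.7% and 22.9% of all genes were higher and lower. Without BxPC3 replicate 2 the count was 25, as EIF2AK3 no longer passed (adjusted p = 0.0761). All 8 XBP1/ATF6-type members that differed were lower in AsPC1 (median of the 12, -0.37; of all genes, 0.11), led by EDEM1, with 8.69, 8.64 and 8.92 in AsPC1 and 10.04, 10.06 and 10.09 in BxPC3 (-1.32 ± 0.11, adjusted p = 1.54e-07). The 27 ATF4-type members were divided, 9 higher and 9 lower (median -0.12).

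VLDLR differed most between the lines, by -3.00 ± 0.12 (7.98-fold, adjusted p = 7.13e-11). The mRNAs of the earlier enzymes of serine synthesis were lower in AsPC1. PHGDH read 6.40, 6.32 and 6.03 in AsPC1, below the median of all values on the arrays (6.554), and 7.34, 7.20 and 7.31 in BxPC3 (-1.03 ± 0.11). PSAT1 read 7.65, 7.72 and 7.92 against 8.76, 9.10 and 9.04 (-1.21 ± 0.11). The proline enzyme ALDH18A1 (1.19 ± 0.11) and ASNS (0.79 ± 0.09) were higher in AsPC1. WARS1 was lower there (-1.26 ± 0.07). For these 5 genes the adjusted p lay between 3.56e-09 and 8.62e-06.

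Between the derivatives, 21 of 39 members differed (53.8%, against 43.3% of all genes), 9 higher and 12 lower in AsPC1-R, where 21.3% and 22.0% of all genes were higher and lower. This comparison and the parental one share no array with each other, but each shares arrays with the comparisons of a derivative with its parent, so only their values are set side by side. The median of the XBP1/ATF6-type members was -0.06 between the derivatives and -0.37 between the parents, with 2 higher and 4 lower in AsPC1-R. ASNS differed by 1.80 ± 0.09 (3.48-fold) between the derivatives, PSAT1 by -1.58 ± 0.11, PHGDH by -1.39 ± 0.11 and VLDLR by -2.24 ± 0.12.

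**Figure D5:**
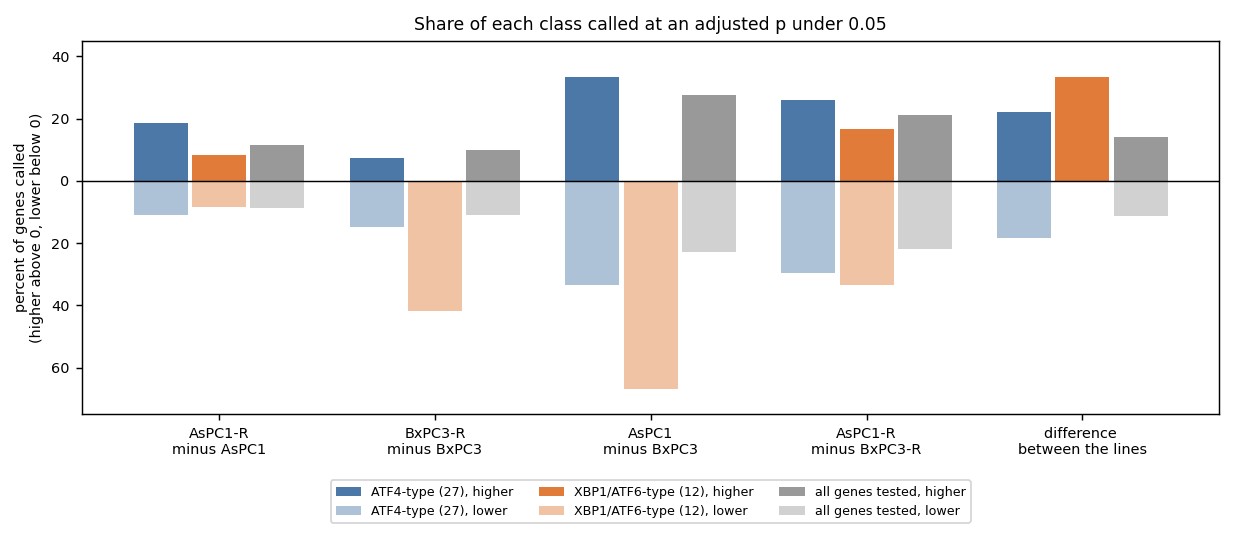
Percent of ATF4-type members (27), XBP1/ATF6-type members (12) and all genes tested (y axis) called higher, above 0, or lower, below 0, in each of 5 comparisons (x axis). In BxPC3-R minus BxPC3 the XBP1/ATF6-type bar reaches 41.7% lower against 11.0% of all genes, and in the difference between the lines it reaches 33.3% higher against 14.1%.

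Other genes of these pathways, in lists of genes that are not among the 39, are given by their counts, to be read against the shares of all genes: 11.6% rose and 8.64% fell in AsPC1-R, 9.75% rose and 11.0% fell in BxPC3-R, and 25.4% differed in their change. Of 20 other ATF4-type targets and partners, 9 rose and 1 fell in AsPC1-R and 3 rose and 7 fell in BxPC3-R (2 and 7 without BxPC3 replicate 2), and the change differed in 11. SLC7A11, the cystine transporter, rose by 1.12 ± 0.09 in AsPC1-R, from 10.31, 10.53 and 10.43 to 11.61, 11.43 and 11.59. It fell by -0.91 ± 0.09 in BxPC3-R, from 11.91, 11.67 and 11.77 to 10.89, 10.83 and 10.90. NUPR1, a stress-induced chromatin protein, and GDF15, a secreted stress cytokine, took the same directions: 0.46 ± 0.11 and 0.45 ± 0.14 in AsPC1-R and -0.96 ± 0.11 and -0.95 ± 0.14 in BxPC3-R. The amino acid transporters SLC1A4 (0.82 ± 0.10) and SLC3A2 (0.64 ± 0.08) and the growth arrest gene GADD45A (0.49 ± 0.11) rose in AsPC1-R, and KLHL24 fell most in BxPC3-R (-1.99 ± 0.10). SLC7A5, SLC1A5 and XPOT, named after their values were seen, did not take these directions. In BxPC3 and BxPC3-R, SLC7A5 averaged 10.25 and 10.69, SLC1A5 9.39 and 9.76, and XPOT 11.11 and 11.35. In AsPC1 and AsPC1-R the means were 9.52 and 9.62, 9.19 and 8.98, and 11.18 and 10.79. The rise of GDF15 in AsPC1-R did not hold without AsPC1 replicate 2 or 3, AsPC1-R replicate 1 or 2 or BxPC3-R replicate 1 (adjusted p = 0.0545 to 0.153).

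The upstream arm, 12 kinases and translation factors around eIF2, held 3 genes that rose and 1 that fell in AsPC1-R and 2 that rose in BxPC3-R. EIF2AK4 (GCN2), the kinase that senses uncharged tRNA, rose by 0.34 ± 0.09, EIF2S1, the phosphorylated subunit, by 0.38 ± 0.10 and EIF2B1, of its exchange factor, by 0.29 ± 0.08 in AsPC1-R, where EIF2AK1 fell by -0.33 ± 0.08. In BxPC3-R, EIF2B1 rose by 0.55 ± 0.08 and EIF2B3 by 0.79 ± 0.12. In AsPC1-R, EIF2S1 was lost when replicate 1 of AsPC1 (adjusted p = 0.0647) or replicate 2 of AsPC1-R (0.0663) was left out. EIF2B1 was lost when replicate 2 of AsPC1 (0.0812) or replicate 3 of AsPC1-R (0.0859) was, and EIF2AK4 when replicate 1 of AsPC1-R (0.051) was. Of 11 other cytosolic tRNA synthetases none passed in AsPC1-R by limma (4 had an unadjusted p under 0.05), and FARSB (0.48 ± 0.08) and VARS1 (0.32 ± 0.10) rose in BxPC3-R. VARS1 did not pass without BxPC3 replicate 2 (adjusted p = 0.0648), nor without any other single BxPC3 or BxPC3-R array or AsPC1-R replicate 1 (0.0514 to 0.156); without BxPC3 replicate 2, 1 of the 11 rose in AsPC1-R. Of 8 other folate, serine and proline enzymes, MTHFD1 rose in BxPC3-R (0.54 ± 0.10) and none passed in AsPC1-R by limma (1 had an unadjusted p under 0.05).

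Among other chaperones and oxidoreductases of the ER, more genes rose than fell in AsPC1-R and more fell than rose in BxPC3-R. Of 16, 5 rose and none fell in AsPC1-R, where 11.6% of all genes rose and 8.64% fell. In BxPC3-R 6 fell and none rose, 6 also without BxPC3 replicate 2, where 11.0% of all genes fell and 9.75% rose. The change differed in 10 (9 without that array), all with a positive difference, where 25.4% of all genes differed in their change. Set directly against each other, AsPC1-R exceeded BxPC3-R in 5 and was lower in 3, with a median difference of 0.02. P4HB, the main protein disulphide isomerase, read 10.75, 10.51 and 10.79 in AsPC1, 11.15, 11.20 and 11.31 in AsPC1-R, 11.14, 11.27 and 11.18 in BxPC3 and 10.84, 10.73 and 10.74 in BxPC3-R (0.54 ± 0.09 and -0.43 ± 0.09). Its groups did not overlap in either pair. The chaperones DNAJB9 (0.50 ± 0.15) and HSPA13 (0.45 ± 0.11) and the proline isomerase FKBP14 (0.47 ± 0.12) rose in AsPC1-R, and ERO1B (-1.59 ± 0.16), PDIA5 (-0.83 ± 0.13), PDIA6 (-0.54 ± 0.09) and MANF (-0.44 ± 0.08) fell in BxPC3-R. ERO1B read 5.18, 5.20 and 5.57 in BxPC3-R, below the median of all values on the arrays, 6.554. In AsPC1-R, DNAJB9 was lost without replicate 1 or 2 of AsPC1 or of AsPC1-R (adjusted p = 0.0735 to 0.142), FKBP14 without AsPC1-R replicate 2 (0.0523) and HSPA13 without AsPC1-R replicate 1 (0.0514). HSPA5 (BiP), the chief ER chaperone, named after its values were seen, also fell in BxPC3-R (-0.35 ± 0.08, adjusted p = 0.00659) and changed by -0.06 in AsPC1-R.

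Of 12 other ERAD genes, SELENOS rose in AsPC1-R by 1.00 ± 0.09, from 7.53, 7.51 and 7.69 to 8.51, 8.66 and 8.54, and EDEM2 (-0.70 ± 0.11) and ERLEC1 (-0.29 ± 0.09) fell in BxPC3-R, ERLEC1 not without BxPC3 replicate 1 or BxPC3-R replicate 1 or 2 (adjusted p = 0.0903 to 0.109). Of 12 genes of translocation and traffic, SEC23B and KDELR3 rose in AsPC1-R by 0.29 ± 0.09 and 0.33 ± 0.09, and SEC61B fell in BxPC3-R by -0.32 ± 0.09. Without BxPC3 replicate 2 the change of SEC61B was -0.26 (adjusted p = 0.0759), and of this list none then fell in BxPC3-R and 1 rose; the fall was also lost without BxPC3-R replicate 2 (0.0561) or 3 (0.0688). KDELR3 was lost when replicate 3 of AsPC1 or replicate 1 or 2 of AsPC1-R was left out (0.0739 to 0.0851), and SEC23B when replicate 2 of AsPC1 or replicate 1 or 3 of AsPC1-R was (0.0737 to 0.124). Among 11 further sensors and ATF6/CREB3 family genes, CREB3 rose in AsPC1-R (0.65 ± 0.11), as did TNFRSF10B (0.31 ± 0.08), a death receptor that DDIT3 can raise. CREB3L3 (-0.62 ± 0.14) and ERN2 (-0.39 ± 0.12) fell there, ERN2 not without replicate 1 or 2 of AsPC1 or of AsPC1-R or BxPC3-R replicate 2 (adjusted p = 0.0501 to 0.168). TNFRSF10B (-0.37 ± 0.08) and MBTPS1 (-0.37 ± 0.09), the protease that cleaves ATF6, fell in BxPC3-R.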

How the data were processed

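Total RNA from 4 groups of 3 arrays was amplified, labelled and hybridized. Per the submitters' processing notes, the authors' log2 level of each probe set comes from Affymetrix Expression Console and RMA, with versions and genome build not given in the sources used here. RMA quantile-normalizes the arrays, which can hide a shift of all genes at once, so changes are relative to the other genes of an array, and the values hold no depth.

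The table has 33297 probe sets. Of these, 19460 carry a single gene symbol and were used, while 1754 with several symbols and 12083 with none were left out, and for the 769 genes with several probe sets the one with the highest mean over the 12 arrays was used, giving 18417 genes, 18389 of them found in RefSeq. No filter on low values was applied to members or other genes. limma 3.58.1 in R 4.3.3 (lmFit, eBayes) fitted 4 group means to all 12 arrays, with 8 residual and 5.47 prior degrees of freedom; tests were two-sided with Benjamini-Hochberg adjustment over all genes and a threshold of 0.05. The fit was tested on simulated data.

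The members and all gene lists were chosen with earlier results of these data known. All 39 members are accounted for. Array values are given for members called in a derivative or in the difference between the lines and for ATF4, DDIT3, XBP1, ATF6, ERN1, EIF2AK3, CEBPB and CEBPG. From each other list up to 4 called genes per comparison are named, apart from HSPA5, SLC7A5, SLC1A5 and XPOT, named after their values were seen. Promoters came from RefSeq (GRCh38.p14; 36 members matched). Replicate numbers were checked for pairing: deviations of same-numbered arrays correlated at -0.24 to 0.34 (18 pairs, median 0.03) and those of other pairs at -0.32 to 0.26 (36 pairs), so the numbers were not used. Alternatives covered the replicate block, normalization, scaling, dim genes, variance model, groups fitted, probe sets, array weights, the threshold and each array left out.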

Additional observations from a re-analysis of the deposited data

Results flagged for a closer look

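Each gene below is singled out because its log2 change in AsPC1-R against AsPC1 differed from that in BxPC3-R against BxPC3 by limma's test of the difference itself, at an adjusted p under 0.05. The value after each gene is the first change minus the second. Among the 39 members there were 15. Positive values were found for DDIT4 (1.06), ASNS (1.01), WARS1 (0.98), HERPUD1 (0.80), VLDLR (0.75), XBP1 (0.74), ERN1 (0.69), PSPH (0.50), SEL1L (0.45) and CARS1 (0.39), and negative values for ALDH18A1 (-0.75), SHMT2 (-0.68), CEBPG (-0.59), MARS1 (-0.46) and EPRS1 (-0.42).

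In the 8 other pathway lists, 34 of 102 genes met the same test (33.3%, against 25.4% of all genes); the 25 given here are those among the genes named because they were called in at least 1 comparison. Those with a positive value were KLHL24 (2.15), SLC7A11 (2.03), ERO1B (1.63), NUPR1 (1.42), GDF15 (1.40), SELENOS (1.11), P4HB (0.96), SLC1A4 (0.87), DNAJB9 (0.87), HSPA13 (0.76), SLC3A2 (0.69), TNFRSF10B (0.68), PDIA5 (0.67), PDIA6 (0.67), EDEM2 (0.66), VEGFA (0.58), FKBP14 (0.57), EIF2AK4 (0.36), SEC61B (0.36), MANF (0.35) and ERLEC1 (0.35). Negative values were found for EIF2B3 (-0.66), CREB3L3 (-0.65), MTHFD1 (-0.61) and FARSB (-0.35). Without BxPC3 replicate 2, the array that stood apart, the calls of EIF2AK4 (adjusted p = 0.0545), FARSB (0.0556), MANF (0.0673), SEC61B (0.105) and CREB3L3 (0.0742) were lost, and so were those of PSPH (0.0709) and CARS1 (0.0867) among the members. These calls were also lost when any of several other single arrays was left out. ERLEC1 (adjusted p = 0.0613 to 0.12) and FKBP14 (0.0523 to 0.0551) kept the call without BxPC3 replicate 2 but lost it without certain other single arrays. ASNS among the members, and NUPR1, GDF15, SLC7A11, P4HB and TNFRSF10B among the others listed, rose in AsPC1-R and fell in BxPC3-R, each past the threshold in both. For the remaining genes listed here at least 1 of the 2 changes did not pass alone.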

How the results depend on the processing

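Under 21 alternatives, each of the single-member changes between the groups kept its direction where it was called, except that PSPH, averaged over its probe sets, turned to -0.97 (AsPC1 minus BxPC3) and -0.16 (AsPC1-R minus BxPC3-R). Of the members called in AsPC1-R, 7 of 10 passed in every alternative, of those in BxPC3-R 7 of 11, between the parental lines 22 of 26, between the derivatives 18 of 21 and in the difference between the lines 12 of 15. Members called in BxPC3-R numbered 11, but 18 with dim genes left out or with eBayes trend and robust settings, 17 after another quantile normalization, 23 with array weights and 7 at 0.01; for the XBP1/ATF6-type these were 9, 8, 8, 10 and 3 in place of 5 (in that order: dim genes, trend and robust, quantile, weights, 0.01), and for the ATF4-type 10 with trend and robust and 13 with weights in place of 6. ATF4-type members called in AsPC1-R numbered 5 with the groups compared alone and 5 at 0.01, in place of 8. XBP1/ATF6-type members with a difference between the lines numbered 7 with array weights in place of 4. At 0.01, 2279, 2495 and 2998 genes were called in AsPC1-R, BxPC3-R and the difference between the lines, against 3730, 3826 and 4685, and array weights gave 6356 in BxPC3-R. Centring arrays on their medians moved the XBP1/ATF6-type median from 0.01 to 0.05 in AsPC1-R and from -0.37 to -0.42 between the parental lines, and the ATF4-type median there from -0.12 to -0.17. For these shifts the cause was not tested, beyond the stricter threshold itself.

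With each array left out in turn, the ATF4-type count was 5 to 12 in AsPC1-R and the XBP1/ATF6-type count 3 to 7 in BxPC3-R and 4 to 7 in the difference between the lines. The ATF4-type median ran from 0 to 0.06 in AsPC1-R, -0.07 to 0.03 in BxPC3-R and -0.15 to -0.04 between the parental lines. The XBP1/ATF6-type median ran from -0.05 to 0.09 in AsPC1-R, -0.41 to -0.33 between the parental lines, -0.12 to -0.04 between the derivatives and 0.25 to 0.41 in the difference between the lines. The replicate numbers do not pair the samples; with the replicate block, members called were 12 in AsPC1-R, 12 in BxPC3-R, 27 and 22 between lines and 14 in the difference. Depth cannot be assessed from these values, and with 3 arrays a group a change that misses the threshold is not shown to be absent.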
